A study of Mus musculus with 1617 samples.

Results

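Microglia are the resident macrophages of the brain. They derive from yolk sac precursors that enter the brain in the embryo, and they renew themselves locally afterwards. In the first postnatal weeks they prune synapses, clear dying cells and mature in gene expression, while adult microglia survey a finished tissue. The thalamus relays sensory signals to the cortex, and its circuits are still being refined at postnatal day 14 (P14).

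Microglia of the adult mouse thalamus were compared here with microglia of the P14 mouse thalamus, across all genes. The labels place 99 adult and 190 P14 cells, all single-read, in these groups. Of these, 91 adult and 187 P14 cells were used, 278 of the 1617 cells of the whole series. Cells were left out where Calb1 reached 100000 TPM (9 cells, at 118206 to 496090 TPM, 7 of them adult) or where fewer than 1000 genes reached 1 TPM (1 cell in each group). TPM, a relative transcript level within a cell, is scaled by transcript length, so levels of different genes can be compared.

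Each cell was sorted from mouse brain as a macrophage positive for CD45, F4/80 and CD11b and negative for Ly6C, captured alone on a Fluidigm C1 chip and made into its own library. The labels give a region and an age for each cell and name no strain, sex, genotype, treatment, animal or preparation, and no age in weeks for the adult cells. The gate also admits other brain macrophages with these surface markers. Since no animal is named, each age group is 1 sample, and no p-value or standard error is given: a difference between the groups has no replicate check and cannot be told apart from a difference between preparations.

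The cells carried the microglial label in their transcripts. All 91 adult and all 187 P14 cells had 5 or more of 18 homeostatic microglial genes at 10 TPM or more, and P2ry12, the purinergic receptor that steers microglial processes, was at 1 TPM or more in every cell. Cells with 3 or more of 13 markers of border-associated macrophages at 10 TPM or more, the macrophages of the meninges and vessels, numbered 2 of 91 adult (2.20%, exact Clopper-Pearson 95% interval 0.267 to 7.71%) and 6 of 187 P14 cells (3.21%, interval 1.19 to 6.85%). These and all later intervals cover counting error over cells only.

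The 2 groups held similar numbers of genes per cell. Adult cells held 3815 genes reaching 1 TPM at the median (1524 to 5552), and P14 cells 4043 (1406 to 6145). Reads per cell are unknown, because TPM keeps no depth. The cell numbers in the titles form unbroken stretches, called title runs below: 2 runs of 41 and 50 adult cells, and 3 runs of 67, 64 and 56 P14 cells. The labels do not say what a run stands for. Runs are not replicates of an age, but a gene whose adult run means both lie on 1 side of all 3 P14 run means does not owe its direction to a single stretch of cells, and it is called separated by run. With so few runs this order can also arise without a difference between the ages, so it is a description and not a test.

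Genes averaging at least 5 TPM at either age were taken as measured. Of these 12066 genes, 3587 (29.7%) were 1.5-fold or more higher in adult cells and 3818 (31.6%) were 1.5-fold or more lower. Separated by run as well were 1351 higher (11.2%) and 1501 lower genes (12.4%). The median log2 ratio of all measured genes was -0.005, where the log2 ratio is taken on mean TPM plus 1, which understates differences of low genes. With the difference of mean log2(TPM + 1) in place of the ratio of means, 488 genes were 1.5-fold or more higher and 1212 lower, so that the balance moved towards lower genes. This second measure weighs how many cells hold a transcript, while the ratio of means also follows a few cells with very high values.

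Differences were fewer among abundant genes. Of 4571 genes with a higher mean of 5 to 20 TPM, 39.7% were lower in adult cells and 28.4% higher. Of 311 genes at 500 TPM or more, 71 (22.8%) were lower and 43 (13.8%) higher, and 57 and 34 of these were separated by run. Among these 311 were 26 ribosomal protein genes, of which 21 were lower.

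**Figure D1:**
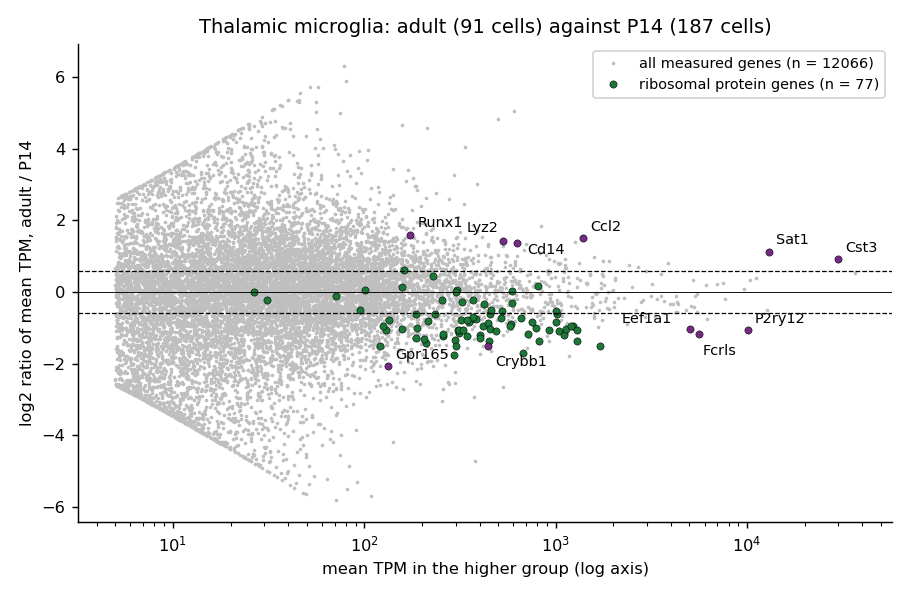
Each grey point is 1 of 12066 measured genes, with the mean TPM of its higher group on a log axis and the log2 ratio of mean TPM, adult over P14, on the vertical axis; dashed lines mark 1.5-fold. Green points are the 77 ribosomal protein genes, 57 of them below the lower line, and purple points are genes named in the text.

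Most ribosomal protein genes were lower in adult cells. Ribosomal proteins make up the large and the small ribosomal subunit, and their transcripts begin with a pyrimidine stretch through which growth signals adjust their translation. All 77 listed genes were measured, 57 were 1.5-fold or more lower in adult cells (against 31.6% of all measured genes), 1 was higher and 54 were lower and separated by run (against 12.4%). The median log2 ratio over the 77 was -0.95 by means and -1.91 by the difference of mean log2 values. Large subunit genes (34 of 46 lower, median -0.85) and small subunit genes (23 of 31 lower, median -0.99) lay close together.

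Summed per cell, the 77 genes held a median of 18149 TPM in adult cells (3307 to 92714) and 33577 TPM in P14 cells (516 to 126938). The adult run medians were 20176 and 17226 TPM, both below the P14 run medians of 29453, 35603 and 33612 TPM, while single cells of both ages overlapped. In cells with 2500 to 3500 genes the share of all TPM was 1.92% in adult and 4.43% in P14 cells, with 3500 to 4500 genes 1.97% and 3.38%, and with 4500 to 5500 genes 1.46% and 3.10%. The difference was thus present at each band of genes per cell. Annotated ribosomal protein pseudogenes, near copies to which reads can be assigned, were lower too: 252 of them summed to a mean of 3441 TPM in adult and 5844 TPM in P14 cells.

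**Figure D2:**
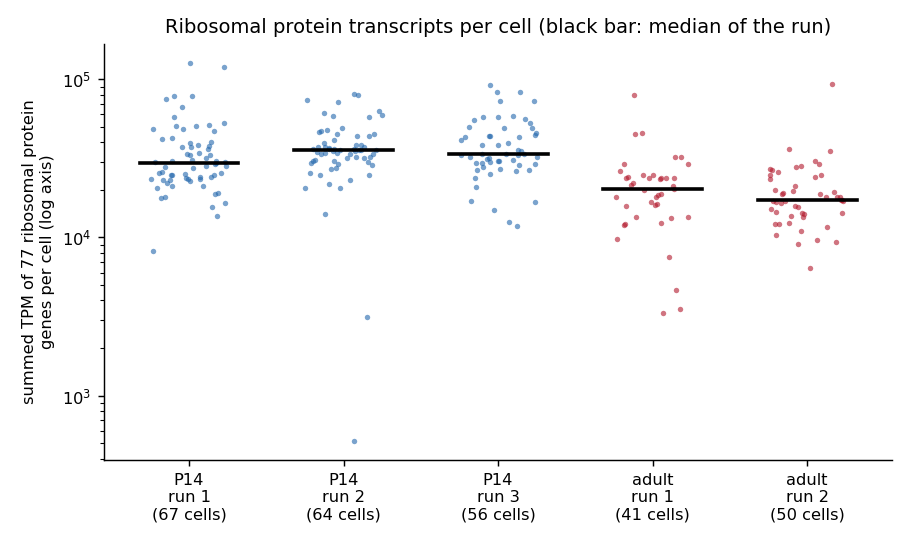
Each point is 1 cell, with the summed TPM of 77 ribosomal protein genes on a log axis, by title run; black bars are run medians. The 2 adult medians, 20176 and 17226 TPM, lie below the 3 P14 medians of 29453 to 35603 TPM, and the cells of the runs overlap.

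The 4 ribosomal protein genes with the largest ratios were Rpl35, Rps6, Rps24 and Rps7. Rps6, the subunit protein phosphorylated by growth signalling (ENSMUSG00000028495.14, GRCm38 chromosome 4, 86854660 to 86857412, minus strand), had a median of 14.8 TPM in adult cells (0 to 1308) and of 479.5 TPM in P14 cells (0 to 3937). The adult run means were 175 and 235 TPM, those of P14 669.8, 625 and 749 TPM, and its mean was 208 against 678 TPM, a log2 ratio of -1.70. Adult cells with 1 TPM or more of Rps6 made up 60.4% and P14 cells 90.9%. Rpl35 was at a mean of 85.6 against 293 TPM (log2 ratio -1.76), with 58.2% of adult and 89.8% of P14 cells at 1 TPM or more. Rps24 was at 105 against 301 TPM (-1.51) and Rps7 at 41.8 against 121 TPM (-1.51). The most abundant member at P14 among those named, Rps19, was at 597 against 1695 TPM (-1.50).

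A few ribosomal protein genes were not lower by their means. Rpl5, which carries 5S ribosomal RNA into the large subunit, was at 162 TPM in adult and 106 TPM in P14 cells (0.61), with 30.7% of the adult sum in 1 cell, and the difference of its mean log2 values was -0.52, the other way. Rpl10 was at a mean of 812 against 728 TPM (0.16) and a median of 129 against 173 TPM, with a difference of mean log2 values of -0.62. Rplp1, a protein of the ribosomal stalk, was at a mean of 588 against 575 TPM (0.03) and a median of 229 against 359 TPM, with a difference of mean log2 values of -0.52. By that measure all 3 were lower in adult cells, Rpl10 past 1.5-fold.

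Promoter sequences are shown for the 4 genes with the largest ratios and for Rpl5 and Rpl10, whose mean TPM was not lower in adult cells. The sequences are from RefSeq (build GRCm38.p6), 100 bases before to 20 bases after the start of the gene, 5′ to 3′ on the gene's strand, and capitals mark GGAAG or its reverse complement CTTCC, the core bound by ETS factors, the family of the macrophage factor PU.1. Rpl35 lies at chr2:39005112-39005231 on the minus strand, Rps6 at chr4:86857348-86857467 on the minus strand, Rps24 at chr14:24490578-24490697 on the plus strand and Rps7 at chr12:28635934-28636053 on the minus strand. Rpl5 lies at chr5:107900428-107900547 and Rpl10 at chrX:74270716-74270835, both on the plus strand.
Rpl35: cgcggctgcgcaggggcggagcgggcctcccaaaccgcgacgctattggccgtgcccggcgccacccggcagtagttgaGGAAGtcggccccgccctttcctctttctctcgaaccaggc
Rps6: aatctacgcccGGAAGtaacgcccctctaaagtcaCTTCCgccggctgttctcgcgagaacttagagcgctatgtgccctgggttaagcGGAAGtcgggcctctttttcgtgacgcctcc
Rps24: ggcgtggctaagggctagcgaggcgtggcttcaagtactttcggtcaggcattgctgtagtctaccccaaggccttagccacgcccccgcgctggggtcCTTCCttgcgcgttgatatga
Rps7: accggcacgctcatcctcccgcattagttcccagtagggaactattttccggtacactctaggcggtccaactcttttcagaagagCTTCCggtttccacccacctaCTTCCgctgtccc
Rpl5: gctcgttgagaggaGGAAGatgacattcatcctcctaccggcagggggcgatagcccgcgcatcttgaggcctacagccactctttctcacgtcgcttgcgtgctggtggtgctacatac
Rpl10: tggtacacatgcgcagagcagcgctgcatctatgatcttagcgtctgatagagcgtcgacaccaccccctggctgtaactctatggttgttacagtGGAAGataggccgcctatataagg

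GGAAG, searched on both strands, was in 52 of the 57 ribosomal protein promoters in the RefSeq table (91.2%), in a window of 250 bases before to 50 after the start. It was in 71.1% of all 27025 promoters and in 77.2% of 7573 promoters of measured genes. From 20 bases before to 30 after the start it was in 47.4% of the ribosomal protein promoters, 21.9% of all and 28.8% of those of measured genes. The motif was in 36 of 40 promoters of ribosomal protein genes 1.5-fold or more lower in adult cells and in 16 of the 17 others, so its presence did not divide the lower genes from the rest. TTTCC was in 82.5% of the ribosomal protein promoters and 61.3% of all, CTTTT in 56.1% and 53.7%, and CCAAT in 31.6% and 37.9%; a match is a description of the letters, not a site.

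Translation factors were lower with the ribosomal proteins. All 20 listed genes were measured, 11 were 1.5-fold or more lower in adult cells (against 31.6% of all measured genes), 8 of these were separated by run (against 12.4%), and none was higher; the median log2 ratio was -0.63. Eef1a1, which brings aminoacyl transfer RNA to the ribosome (chromosome 9, 78478449 to 78489151, minus strand), had a median of 1995 TPM in adult cells (0 to 9618) and 4454 TPM in P14 cells (18.3 to 22965). The adult run means were 2454 and 2502 TPM, those of P14 5287, 4909.5 and 4959 TPM, without overlap, and its log2 ratio was -1.03. Pabpc1, the poly(A) binding protein, was at a mean of 303 against 817 TPM (-1.43), Tpt1 at 1012 against 1754 TPM (-0.79), Npm1, a nucleolar chaperone, at 286 against 493 TPM (-0.78) and Ncl, nucleolin, at 195 against 344 TPM (-0.82). Eef2, the elongation factor that moves the ribosome along, was at 192 against 301 TPM (-0.65). Eif3f, a subunit of the initiation factor that joins the small subunit, was at 2.19 against 74.3 TPM (-4.56), with 35.2% of the P14 sum in 1 cell. Eif1, which selects the start codon, was at 647 against 526 TPM (0.30). Fau, which encodes a ribosomal protein fused to a ubiquitin-like protein, was at 65.9 against 129 TPM (-0.95).

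Homeostatic microglial genes, which mark microglia in undisturbed brain, were mostly within 1.5-fold by their means. All 18 were measured, 1 was higher (Sall3, against 29.7% of all measured genes) and 4 were lower in adult cells (against 31.6%). Of the lower ones 3 were separated by run (against 12.4%). The median log2 ratio was -0.15 by means and -0.33 by the difference of mean log2 values, by which 8 were 1.5-fold or more lower and 2 higher. P2ry12 (chromosome 3, 59216272 to 59262871, minus strand) had a median of 4539 TPM in adult cells (11.5 to 20198) and 9121 TPM in P14 cells (42.7 to 37893), with run means of 4763 and 4892 TPM against 8681, 11382 and 10187 TPM, and a log2 ratio of -1.06. The adult run means were lower than every P14 run mean although the transcript was in every cell. Fcrls, a microglial Fc receptor-like protein (chromosome 3, 87250758 to 87263738, minus strand), had a median of 1978 TPM in adult (4.03 to 9382) and 4980.05 TPM in P14 cells (10.7 to 46797), with run means of 2007 and 2911 TPM against 4159, 7654 and 4997 TPM (log2 ratio -1.16). Sparc, a secreted matrix protein, was at a mean of 3644 against 6174 TPM (-0.76), with runs separated.

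Sall1 and Sall3, related zinc finger factors, went opposite ways. Sall1, which maintains microglial identity, was at a mean of 237 TPM in adult and 358 TPM in P14 cells (-0.59), and its run means overlapped. Sall3 was at 119 against 55.2 TPM (1.09), with runs separated, and was at 1 TPM or more in 48.4% of adult and 40.1% of P14 cells. Further well known members were within 1.5-fold: Tmem119 was at 1088 against 885 TPM (0.30), Selplg at 1518 against 1071 TPM (0.50), Cx3cr1 at 3562 against 4326 TPM (-0.28) and Csf1r at 1635 against 1830.3 TPM (-0.16).

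Most genes ascribed to juvenile microglia were lower in adult cells. Of 10 juvenile-stage genes, all measured, 6 were 1.5-fold or more lower (against 31.6% of all measured genes), 4 of them separated by run (against 12.4%), none was higher, and the median log2 ratio was -0.97; Fcrls is in this list too. Crybb1, a crystallin made by young microglia (chromosome 5, 112255815 to 112269585, plus strand), had a median of 3.14 TPM in adult (0 to 4001) and 81.7 TPM in P14 cells (0 to 11898), with run means of 225 and 95.9 TPM against 645, 324 and 337 TPM (log2 ratio -1.52). Gpr165, an orphan receptor (chromosome X, 96713441 to 96719388, plus strand), was at 1 TPM or more in 22.0% of adult cells (Clopper-Pearson 95% interval 13.97 to 31.9%) and 54.5% of P14 cells (47.1 to 61.8%), with run means of 36.8 and 25.6 TPM against 141, 126 and 132 TPM (-2.08). Both genes were lower in each adult run than in any P14 run. Psat1, of serine synthesis, was at 1.55 against 48.0 TPM (-4.26), but in only 12.3% of P14 cells, and Dab2, an endocytic adaptor, at 10.2 against 71.5 TPM (-2.70), with overlapping runs.

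Of 12 genes ascribed to adult microglia, all measured, 4 were 1.5-fold or more higher in adult cells, near the 29.7% of all measured genes. Of these 3 were separated by run (against 11.2%), and 1 member was lower (median 0.28). Runx1, a transcription factor of the myeloid lineage (chromosome 16, 92601466 to 92826149, minus strand), had a median of 22.3 TPM in adult (0 to 1190.15) and 0.35 TPM in P14 cells (0 to 1119.7), and run means of 166 and 179.7 TPM against 69.5, 61.5 and 35.2 TPM (log2 ratio 1.60). Cd14, the coreceptor for bacterial lipopolysaccharide, had a median of 83.3 against 7.28 TPM and a mean of 625 against 243 TPM (1.36), and both adult run means, 539 and 695 TPM, exceeded those at P14, 208, 215 and 317 TPM. Pmepa1, a feedback inhibitor of TGF-beta signalling, was at 91.4 against 59.3 TPM (0.62), with overlapping runs.

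**Figure D3:**
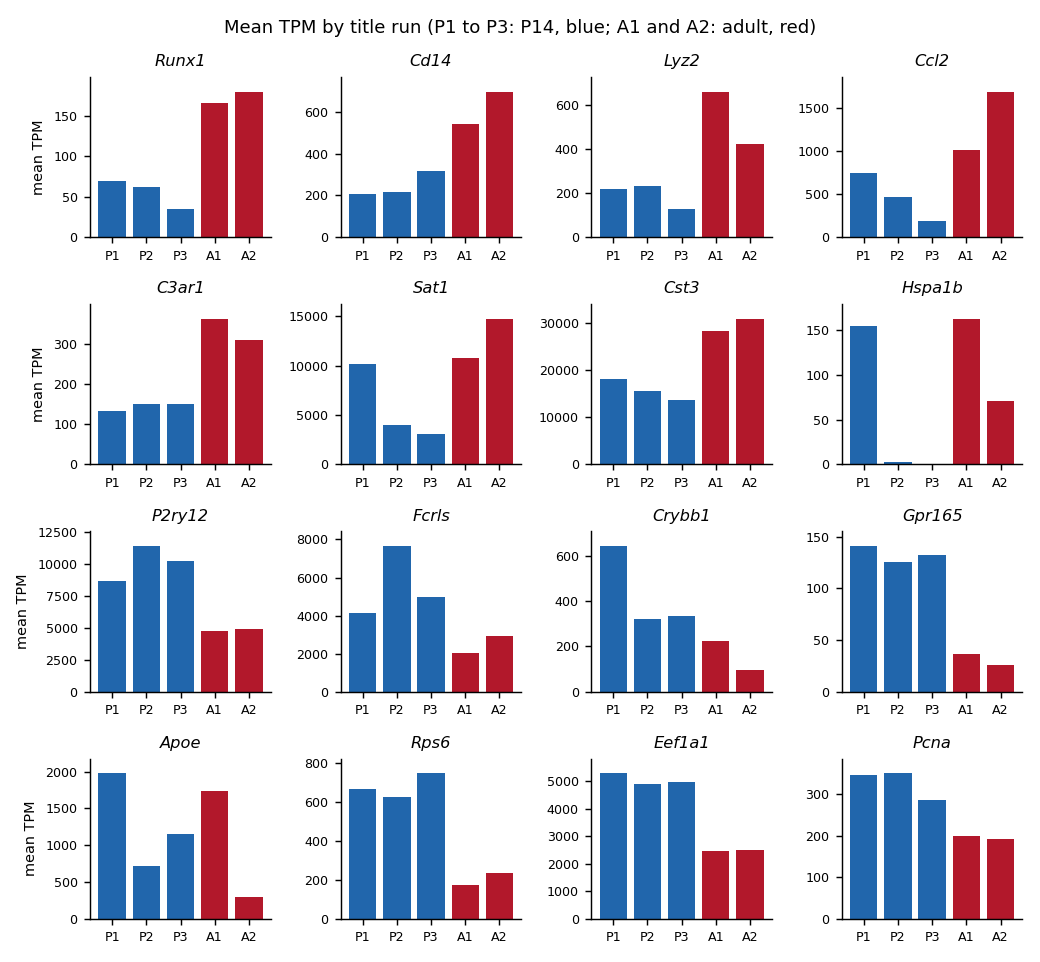
Bars are the mean TPM of 16 genes in each title run, P14 in blue (P1 to P3, 67, 64 and 56 cells) and adult in red (A1 and A2, 41 and 50 cells), on axes that start at 0. Runx1, Cd14, Lyz2, Ccl2, C3ar1, Sat1 and Cst3 are higher in both adult runs and P2ry12, Fcrls, Crybb1, Gpr165, Rps6, Eef1a1 and Pcna lower, while for Apoe and Hspa1b runs of the 2 ages overlap.

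Genes of disease-associated microglia, a state described in neurodegeneration and aging, showed no common direction. Of 25 listed genes 22 were measured, 4 were 1.5-fold or more higher (against 29.7% of all measured genes) and 5 lower in adult cells (against 31.6%). The median log2 ratio was -0.29. Separated by run were 1 higher (against 11.2%) and 3 lower genes (against 12.4%). Lyz2, lysozyme (chromosome 10, 117277331 to 117282321, minus strand), was at a mean of 531 TPM in adult and 197 TPM in P14 cells (1.42), with run means of 661 and 425 TPM against 219, 234 and 129 TPM; its median was 0 in both groups, and 47.3% of adult and 38.0% of P14 cells held 1 TPM or more. Timp2, a metalloproteinase inhibitor, was at 128 against 75.4 TPM (0.76), with overlapping runs. Igf1, a growth factor for neurons and oligodendrocytes, was at 2.75 against 21.5 TPM (-2.59), with 63.7% of the P14 sum in 1 cell. Lpl, lipoprotein lipase, was at 38.8 against 81.6 TPM (-1.05), in 82.4% of adult and 84.0% of P14 cells.

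For 3 further members the medians differed more than the means. Apoe, the main lipid carrier of the brain (chromosome 7, 19696109 to 19699188, minus strand), was at 1 TPM or more in 48.4% of adult and 87.7% of P14 cells and had a median of 0 against 212 TPM. Its mean was 942 against 1299.5 TPM (-0.46), and 54.0% of the adult sum came from 1 cell. At 100 TPM or more it was found in 13 of 91 adult cells (14.3%, interval 7.83 to 23.2%) and 108 of 187 P14 cells (57.8%, interval 50.3 to 64.9%), and by run in 9 of 41 and 4 of 50 adult cells and 53 of 67, 25 of 64 and 30 of 56 P14 cells. The share was thus lower in each adult run than in each P14 run, although the run means overlapped. Ctsl, a lysosomal protease, had a median of 95.1 against 828 TPM and a mean of 674 against 1075 TPM (-0.67). Cd9, a tetraspanin of the cell surface, had a median of 1023 against 139 TPM, a mean of 1504 against 1092 TPM (0.46) and 19.6% of its P14 sum in 1 cell.

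Lysosomal genes, the degradative machinery behind phagocytosis, were seldom higher in adult cells. Of 23 listed, all measured, 7 were lower, close to the 31.6% of all measured genes, and 1 was higher (against 29.7%). Of the lower genes 3 were separated by run (against 12.4%). Ctsa, a carboxypeptidase that protects other lysosomal enzymes, was at a mean of 997 against 1590 TPM (-0.67) and a median of 248 against 1188 TPM. Ctsh, an aminopeptidase, was at 1056 against 600 TPM (0.82), with run means of 868 and 1210.1 TPM against 636, 779.9 and 351 TPM. Lgmn, the asparaginyl protease legumain, was at 3877 against 5105 TPM (-0.40).

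Most measured TGF-beta signalling genes were higher in adult cells. TGF-beta binds a receptor pair that phosphorylates Smad proteins, which enter the nucleus with Smad4, and the pathway is required for the microglial expression programme. Of 16 listed genes 13 were measured, 10 were 1.5-fold or more higher (against 29.7% of all measured genes), 8 of them separated by run (against 11.2%), and 1 was lower. The median log2 ratio was 0.93 by means and 0.35 by the difference of mean log2 values, by which 4 genes were 1.5-fold or more higher. Several of these genes were found in few cells, with a median near 0. Summed per cell, the list did not go 1 way at each band of genes per cell. With 2500 to 3500 genes the median sum was 2084 TPM in adult and 1047 TPM in P14 cells. With 3500 to 4500 genes it was 2270 against 1304 TPM. With 4500 to 5500 genes it was lower in adult cells, at 1319 against 1588 TPM.

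The measured members are given from the ligand to the nucleus, except Pmepa1, which is given above. Tgfb1, the ligand, was at 12.97 against 0.252 TPM (3.48), but 73.8% of the adult sum came from 1 cell. Nrros, which holds the latent ligand on microglia, was the lower member, at 111 against 189 TPM (-0.77). The receptors Tgfbr1 and Tgfbr2 had log2 ratios of 0.19 and 0.93, and Smad2 and Smad3 of 0.89 and 0.93. Smad2 had overlapping runs and 53.5% of its adult sum in 1 cell. It was in 7.69% of adult and 16.6% of P14 cells, with a difference of mean log2 values of -0.41, the other way. Smad4 was at 128 against 36.5 TPM (1.78), in 14.3% of adult and 11.2% of P14 cells, with run means of 208 and 62.5 TPM against 4.89, 50.2 and 58.7 TPM. Smad7, an inhibitor of the receptor, was at 53.1 against 26.9 TPM (0.95). The nuclear repressors Ski and Skil were at 96.0 against 35.7 TPM (1.40) and 453 against 267 TPM (0.76), and Skil was found in 92.3% of adult and 92.5% of P14 cells with a median of 257 against 87.4 TPM. Tgif1 was at 129 against 89.2 TPM (0.53), with overlapping runs. Bmp2k, a kinase inducible by bone morphogenetic protein, was at 207 against 106 TPM (0.96), with a median of 135 against 54.0 TPM and run means of 221 and 195 TPM against 104, 130.1 and 81.3 TPM.

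Inflammatory cytokine and chemokine genes were higher on average in adult cells. Of 18 listed 15 were measured, 8 were 1.5-fold or more higher (against 29.7% of all measured genes), 6 of them separated by run (against 11.2%), and 1 was lower (median 0.85 by means, 0.33 by mean log2 values). The median was 0.29 without the second adult run, and of 14 measured members 6 were then higher and 5 lower. Ccl2, a chemokine that draws monocytes (chromosome 11, 82035571 to 82037453, plus strand), was at 1 TPM or more in 69.2% of adult cells (58.7 to 78.5%) and 43.3% of P14 cells (36.1 to 50.7%), with run means of 1013 and 1688 TPM against 744, 472 and 191 TPM (log2 ratio 1.51). Ccl7, its neighbour in function, was at 180.3 against 18.8 TPM (3.19), with 61.8% of the adult sum in 1 cell. The NF-kB feedback inhibitors were higher as well: Nfkbiz was at 202 against 96.0 TPM (1.07), Tnfaip3 at 272 against 131 TPM (1.05) and Nfkbia at 461 against 256 TPM (0.85), all with runs separated.

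The chemokines Ccl3 and Ccl4 did not share this pattern. Ccl3 was at 620.1 against 907 TPM (-0.55) and Ccl4 at 1455 against 1257 TPM (0.21). Both were at 100 TPM or more in 19 of 91 adult cells (20.9%, interval 13.1 to 30.7%) and 37 of 187 P14 cells (19.8%, interval 14.3 to 26.2%), shares that differed by less than their counting error. By run the share was 14.6% and 26.0% in the adult and 23.9%, 25% and 8.93% at P14. Egr1, an early gene induced by many stimuli including tissue dissociation, was at 3336 against 4773 TPM (-0.52) and at 1 TPM or more in every cell of both groups. The sum of 19 immediate early genes had a median of 16374 TPM in adult and 17150 TPM in P14 cells; the part of handling in the cytokine values was not tested.

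Interferon response genes were often higher by means: of 18 listed 14 were measured, 9 were higher (against 29.7% of all measured genes) and 4 lower (against 31.6%). Higher and separated by run were 2 (against 11.2%), and lower and separated was 1 (against 12.4%). Isg15, a ubiquitin-like protein, was at a mean of 24.9 against 3.69 TPM (2.46), with 96.9% of the adult sum in 1 cell, and its direction turned without the first adult run. The complement receptors C3ar1 and C5ar1, which sense activated complement, were at 332 against 144 TPM (1.20) and 148 against 67.8 TPM (1.12), with runs separated. Of 12 complement genes 9 were measured, 3 were higher (against 29.7% of all measured genes) and 1 was lower (against 31.6%). H2-T23, a nonclassical MHC class I molecule, was at 243 against 107 TPM (1.17), with runs separated, and H2-D1 at 1139 against 719 TPM (0.66), with overlapping runs.

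Cytokine and growth factor receptors showed no common direction. Of 19 listed 18 were measured, 6 were higher (against 29.7% of all measured genes) and 4 lower (against 31.6%). Each of the 6 was separated by run (against 11.2%), and so were 3 of the 4 (against 12.4%). Tnfrsf11a (RANK), the receptor for RANK ligand, was at 97.2 against 28.1 TPM (1.76) and Ifnar2, of the type I interferon receptor, at 156 against 60.1 TPM (1.36). Il21r was at 15.8 against 60.3 TPM (-1.87) and Il4ra, the interleukin 4 receptor chain, at 13.2 against 47.8 TPM (-1.78), each with runs separated. Gpr56, an adhesion receptor of embryonically derived microglia, had a median of 3.37 against 147 TPM and a mean of 166 against 303 TPM (-0.87), and was in 57.1% of adult and 90.4% of P14 cells. Of 20 measured macrophage transcription factors 6 were higher and 4 lower, against 29.7% and 31.6% of all measured genes. Etv5, an ETS factor, was at 77.2 against 157 TPM (-1.01), with runs separated. Bhlhe41, which also serves in the circadian clock, was at 608 against 1225 TPM (-1.01), but its median was 468 against 232 TPM, and its first P14 run was at 2358 TPM against 369 and 787 TPM in the other P14 runs.

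**Figure D4:**
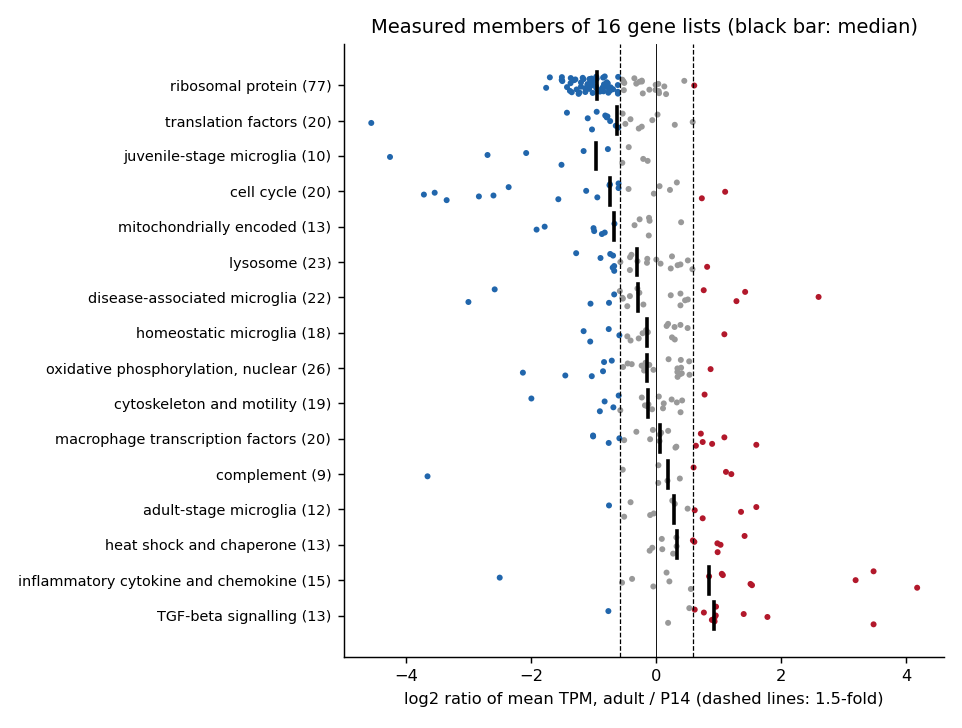
Each point is 1 measured member of 16 gene lists, with its log2 ratio of mean TPM, adult over P14; red and blue points are 1.5-fold or more higher or lower, black bars are medians, and the number measured stands beside each list. Medians run from -0.97 for juvenile-stage and -0.95 for ribosomal protein genes to 0.85 for cytokine and 0.93 for TGF-beta signalling genes.

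Cell cycle genes were mostly lower by means, but not by mean log2 values. Of 28 listed genes 20 were measured, 13 were 1.5-fold or more lower in adult cells (against 31.6% of all measured genes), 6 of them separated by run (against 12.4%), and 2 were higher. By the difference of mean log2 values 2 were lower and 1 higher, and without the second P14 run 6 of 18 were lower and 4 higher. The median log2 ratio was -0.75, -0.18 by the difference of mean log2 values, -0.46 without the second P14 run and -1.39 without the second adult run. Mki67, which marks cycling cells, was at 1 TPM or more in 3 of 91 adult cells (3.30%, interval 0.685 to 9.33%) and 7 of 187 P14 cells (3.74%, interval 1.52 to 7.56%), 5 of them in the second P14 run. Cells with 5 or more list members at 10 TPM or more were 20 of 91 in the adult (22.0%, interval 13.97 to 31.9%) and 39 of 187 at P14 (20.9%, interval 15.3 to 27.4%). Neither share differed beyond its counting error.

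Single cycle genes behaved differently from each other. Pcna, the sliding clamp of DNA replication and repair, was at 1 TPM or more in 36.3% of adult cells (26.4 to 47.0%) and 65.8% of P14 cells (58.5 to 72.5%), with run means of 199.7 and 193 TPM against 346, 351 and 286 TPM (-0.75). Tyms, of thymidylate synthesis, was higher, at 94.7 against 43.6 TPM (1.104), with runs separated. Top2a, a topoisomerase, was at 7.80 against 25.1 TPM (-1.57), but its median was 5.69 against 3.36 TPM and its log2 ratio was 0.016 without the second P14 run, which was at 58.5 TPM. Aurkb, a mitotic kinase, was at 0.754 against 22.1 TPM (-3.72), in 3.30% of adult and 4.81% of P14 cells.

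Energy metabolism showed differences in single genes. Pkm, pyruvate kinase (chromosome 9, 59656368 to 59679375, plus strand), was at a mean of 45.7 against 277 TPM (-2.57), in 37.4% of adult and 59.9% of P14 cells. Ldha, lactate dehydrogenase, was at 309 against 122 TPM (1.33). Of 13 glycolysis genes, all measured, 2 were higher (against 29.7% of all measured genes) and 4 lower (against 31.6%). Of 26 nuclear genes of oxidative phosphorylation, all measured, 6 were lower and 1 higher, against the same shares. Sdhd of complex II was at 44.1 against 197 TPM (-2.13) and Ndufa4 at 74.7 against 154 TPM (-1.03), both with runs separated. Of the 13 mitochondrially encoded genes 7 were lower (against 31.6%), 2 of them separated by run (against 12.4%): mt-Nd4 was at 832 against 1658 TPM (-0.99) and mt-Nd6 at 339 against 1172 TPM (-1.79). Their median log2 ratio was -0.67, and by the difference of mean log2 values all 13 were 1.5-fold or more lower, with a median of -1.34. The median ratio was 0.050 when the left-out cells were kept and 0.092 without the second adult run, and it was negative under the other alternatives that gave a value.

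Cytoskeletal, adhesion and channel genes differed one by one. Of 22 cytoskeleton and motility genes 19 were measured, 5 were lower (against 31.6% of all measured genes) and 1 was higher (against 29.7%). All 5 lower genes were separated by run (against 12.4%). Actg1, cytoplasmic gamma actin, had a median of 412 against 1678 TPM and a mean of 1262 against 2360.4 TPM (-0.90), Tuba1b, an alpha tubulin, was at 345 against 612 TPM (-0.83) and Marcksl1 at 7.02 against 31.0 TPM (-1.999). Rac2, a GTPase of blood cells, was at 57.3 against 149 TPM (-1.36), and Itgav, the alpha v integrin that takes part in engulfment and TGF-beta activation, at 241 against 114 TPM (1.07). The potassium channels Kcnj2, an inward rectifier, and Kcna3, a voltage-gated channel, were at 33.3 against 2.09 TPM (3.47) and 35.7 against 2.37 TPM (3.45), with 48.9% and 49.9% of the adult sum in 1 cell. At 1 TPM or more they were in 23.1% against 8.02% and in 12.1% against 1.60% of cells. Trpm7, a channel with a kinase domain, was at 74.4 against 192 TPM (-1.35), with runs separated.

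Heat shock genes differed between the P14 runs: for each of 13 chaperone genes the first P14 run had the highest mean of the 3. All 13 were measured, and 6 were 1.5-fold or more higher in adult cells (against 29.7% of all measured genes). Of these 1 (Bag3, at 55.7 against 20.3 TPM) was separated by run (against 11.2%). Hspa1b was at 162 and 70.4 TPM in the adult runs, at 154 TPM in the first P14 run and at 2.25 and 0.0189 TPM in the other P14 runs. Dnajb1 was at 168 and 154 TPM in the adult runs and at 182, 14.5 and 26.2 TPM at P14. Dnaja1 was at 1460.2 and 1672 TPM against 1673, 262.5 and 367 TPM, and Fth1, the ferritin heavy chain, at 2554 and 2780.3 TPM against 3444, 670.5 and 602 TPM. For Hspa1b, Dnajb1, Dnaja1 and Fth1 the first P14 run lay nearer to the adult runs than the other P14 runs did, and the values of Hspa1b cannot be separated from those of its near-identical copy Hspa1a.

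The largest ratios among genes in more than a few cells were taken by a rule: at least 50 TPM on average at the age where the gene was higher, detection (1 TPM) in at least 25% of cells of that age, no cell of that age with over 25% of the sum, agreement in sign with mean log2 values and separation by run, without ribosomal protein, mitochondrial and predicted genes. It was met by 249 higher and 378 lower genes, and the 20 largest ratios each way were taken. The higher genes were Csmd3, Dfna5, Bmyc, Kdelr2, Ostc, Map2k1, Inpp4a, Txn2, Gstp1, Gimap6, D17H6S53E, Tmx4, Ddx52, Fam32a, Paip1, Prune2, Tnfrsf11a, Tspan13, Zscan26 and Clptm1l, with log2 ratios of 1.69 to 2.77.

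Csmd3, a large transmembrane protein with complement control domains (chromosome 15, 47580637 to 48792063, minus strand), had a median of 12.4 TPM in adult (0 to 3422) and 1.14 TPM in P14 cells (0 to 2017), and run means of 247 and 230.4 TPM against 25.4, 21.2 and 58.9 TPM (2.77). Kdelr2, the receptor that returns chaperones to the endoplasmic reticulum (chromosome 5, 143403838 to 143421901, plus strand), had a median of 202 against 8.98 TPM and run means of 279 and 372 TPM against 85.6, 51.0 and 39.3 TPM (2.44). Tmx4, a thioredoxin-like protein of the same compartment (chromosome 2, 134594185 to 134644145, minus strand), was in 94.5% of adult and 82.4% of P14 cells, with a median of 200.5 against 9.53 TPM and means of 833 against 231 TPM (1.85). Zscan26, a zinc finger protein, had a median of 317 against 48.3 TPM and run means of 447 and 338 TPM against 202, 95.1 and 44.1 TPM (1.70). These 4 genes were separated by run, as was every gene taken, because the rule required it. Others were found in fewer cells: Bmyc, at 78.9 against 12.9 TPM, was in 30.8% against 12.3% of cells, and Ostc, a subunit of the oligosaccharyltransferase, at 308 against 71.4 TPM, was in 36.3% against 32.6%. Map2k1, the kinase MEK1, was at 158 against 38.0 TPM (2.02) and Gimap6, a GTPase of immune cells, at 208 against 55.4 TPM (1.89).

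The lower genes were Hipk2, Clk3, Foxred1, Exoc7, Elmod2, Cops8, Ccnl2, Itga9, Prkab1, Liph, Pkm, Csnk1e, Cmtm3, Ikbkg, Wbp5, Pot1a, Dlst, Stk38, Psmd12 and Ppp2r1a, with log2 ratios of -4.11 to -2.22. Hipk2, a kinase that acts on p53, was at 2.88 against 65.9 TPM (-4.11) and in 14.3% of adult and 34.2% of P14 cells. Clk3, a kinase of splicing factors, was at 6.02 against 72.4 TPM (-3.39) and in 13.2% against 35.3% of cells. Csnk1e, casein kinase 1 epsilon, was at 47.2 against 273 TPM (-2.51), in 63.7% against 77.5% of cells, with run means of 52.6 and 42.7 TPM against 283, 180.2 and 368 TPM. Prkab1, a subunit of the energy sensor AMPK, was at 31.8 against 195 TPM (-2.58), with 71.9% of the adult sum in 1 cell. Cops8, of the COP9 signalosome, was in 7.69% of adult and 31.6% of P14 cells. Most of these genes were thus found in a minority of cells at either age.

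Some abundant genes outside the lists, chosen after their values were seen, differed with runs separated. Cst3, cystatin C, an inhibitor of cathepsins and among the most abundant microglial transcripts (chromosome 2, 148871722 to 148875692, minus strand), had a median of 28926 TPM in adult (522 to 107705) and 14555 TPM in P14 cells (60.7 to 52760), with run means of 28444 and 30985 TPM against 18097, 15622 and 13615 TPM (0.91). Sat1, which acetylates spermidine for breakdown (chromosome X, 155213132 to 155216449, minus strand), had a median of 7359 against 2437 TPM and run means of 10784 and 14729 TPM against 10137, 4040.3 and 3094 TPM (1.12). Its first P14 run came close to the adult runs, as for the heat shock genes. Btg1, an antiproliferative protein, was at 1900.4 against 1045 TPM (0.86), Dhrs3, a retinal reductase, at 1761 against 977 TPM (0.85), Ptafr, the receptor for platelet-activating factor, at 531 against 217 TPM (1.29) and Gnb1, a G protein beta subunit, at 698 against 275 TPM (1.34). Lower were the enzymes of eicosanoid synthesis Ptgs1, cyclooxygenase 1, at 591 against 1131 TPM (-0.94) and Ltc4s, leukotriene C4 synthase, at 398 against 761 TPM (-0.93), the sialomucin Cd164 at 354 against 919 TPM (-1.38) and Sepp1, selenoprotein P, at 1827 against 2945 TPM (-0.69).

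The genes behind the sort and the markers of other cells were read for the makeup of the groups. Emr1, which encodes F4/80, was at a mean of 163 against 398 TPM (-1.28) and in 57.1% of adult and 88.2% of P14 cells, with adult run means of 57.2 and 249 TPM that overlapped the P14 runs. Itgam, which encodes CD11b, was at 326 against 473 TPM (-0.54), and Ptprc, which encodes CD45, at 600 against 484 TPM (0.31). Of 13 border-associated macrophage markers 3 were measured. Mrc1, the mannose receptor, was at 7.92 against 52.1 TPM (-2.58) and at 100 TPM or more in 2 of 91 adult and 17 of 187 P14 cells, and Stab1 at 325 against 365 TPM (-0.17). Pf4 was at 2.85 against 16.6 TPM (-2.19), with 100% of the P14 sum in 1 cell. At 1 TPM or more, Pf4 was in 10 of 91 adult and 1 of 187 P14 cells. The low genes F13a1 and Lyve1 were in 12 and 7 adult cells and in 2 and 0 P14 cells. For Pf4, F13a1 and Lyve1 the second adult run was at 0 TPM. Not every member went this way: Cd163 was in 1 adult and 7 P14 cells. None of the 13 was at 0 in both groups. Summed over them, adult cells had a median of 78.2 TPM (0 to 4561) and P14 cells 70.4 TPM (0 to 7836). The part of these cells in the results was not tested.

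Markers of 6 further lists (neutrophils, mast cells, neurons, mural cells and fibroblasts, erythroid cells, ependymal cells and choroid plexus) held no measured gene. Elsewhere single members were measured. Ighm, the mu heavy chain, was at 669 against 739 TPM (-0.14), Pax6, a factor of neural progenitors, at 219 against 248 TPM (-0.18), Slc1a3, an astrocyte glutamate transporter, at 169.5 against 103 TPM (0.71) and Mbp, a myelin protein, at 5.34 against 30.4 TPM (-2.31). Pax6 was at 1 TPM or more in 100% of adult and 96.3% of P14 cells. The progenitor markers Sox2 and Hes5 were at 0 TPM in both groups. Of 10 astrocyte markers 1 was measured and of 13 markers of the oligodendrocyte lineage 4.

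Adult and P14 microglia of 2 other regions, labelled Hippo (hippocampus, 49 and 105 cells used) and VisCortex (87 and 112 cells), were set beside the thalamus. There 28.5% and 31.6% of measured genes were 1.5-fold or more higher in adult cells and 44.6% and 36.3% lower, and the all-gene medians were -0.33 and -0.07, against -0.005 in thalamus. Ribosomal protein genes had a median log2 ratio of -0.35 in hippocampus (32 of 77 lower) and -0.54 in VisCortex (38 of 77 lower), against -0.95 in thalamus. In hippocampus both values lay near those of all measured genes there, 44.6% lower and a median of -0.33. In VisCortex the values of all measured genes were 36.3% and -0.07. In all 3 regions 12 of them were 1.5-fold or more lower: Rpl10a, Rpl19, Rpl29, Rpl32, Rpl36, Rpl4, Rplp0, Rps10, Rps15a, Rps24, Rps26 and Rps7. The same overlap was not counted over all measured genes. Whether these 12 are more than the separate shares of the 3 regions would give was not tested. TGF-beta signalling genes had medians of 0.93 in thalamus, -0.38 in hippocampus and 0.45 in VisCortex, and no member was 1.5-fold or more higher in all 3. With 1 sample for each age and region, no difference between regions was tested.

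Of single genes, Runx1 had log2 ratios of 1.60 in thalamus, 1.74 in hippocampus and 2.29 in VisCortex, Lyz2 of 1.42, 2.10 and 2.26, and C3ar1 of 1.20, 1.89 and 1.30. Crybb1 had -1.52, -3.87 and -2.67, Gpr165 -2.08, -4.21 and -3.31, and Gpr56 -0.87, -1.29 and -1.02. These 6 genes kept their direction in the 3 regions, but not every gene named above did. Ptafr had 1.29, -0.41 and -1.95 and Kdelr2 2.44, -0.43 and -0.69, while Sat1 had 1.12, 0.015 and 0.070. P2ry12 had -1.06 in thalamus, -0.34 in hippocampus and -0.59 in VisCortex, and Fcrls -1.16, -0.27 and -0.15. Of the 20 higher genes taken by rule, 7 were 1.5-fold or more higher in hippocampus and 7 in VisCortex (Csmd3, Gstp1 and Tmx4 in both), near the all-gene shares there, while 5 and 6 were 1.5-fold or more lower. Of the 20 lower genes 12 were lower in each (Hipk2, Elmod2, Prkab1, Liph, Pkm, Csnk1e and Dlst in both), while 4 and 2 were 1.5-fold or more higher. Of all measured genes 44.6% were lower in hippocampus and 36.3% in VisCortex. The share lower in both was not counted over all measured genes, and no difference from these shares was tested.

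**Figure D5:**
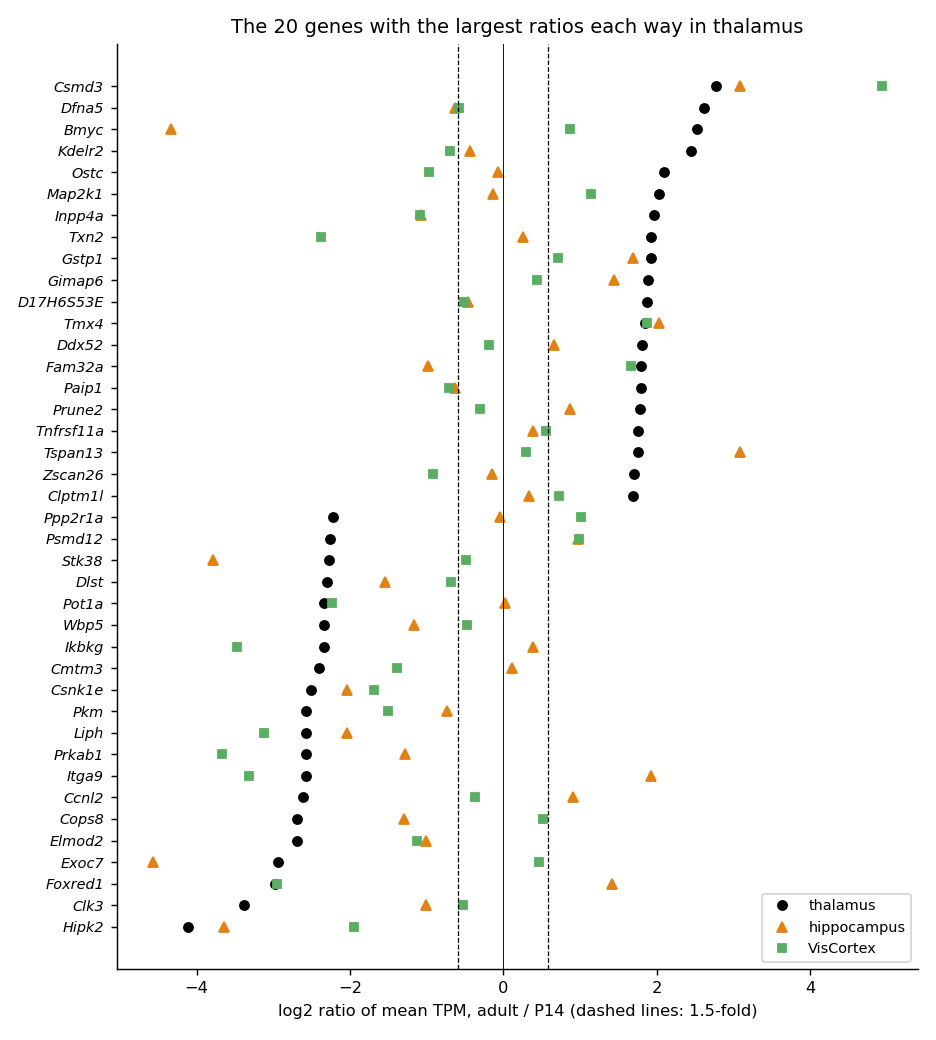
The log2 ratio of mean TPM, adult over P14, of the 40 genes taken by rule in thalamus (black circles), with the same ratio in hippocampus (triangles) and VisCortex (squares); dashed lines mark 1.5-fold. The thalamus values chose the genes, and 3 of the 20 higher and 7 of the 20 lower genes are past 1.5-fold in the same direction in both other regions.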

How the data were processed

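Single macrophages from mouse brain were captured by Fluidigm C1 and sequenced as Nextera XT libraries, 1 sample per cell (the labels' protocols). The authors deposited 1 table of TPM values over 43280 genes, a unit that scales by transcript length and sets each cell to about 1000000 (column sums 996167 to 1000000). RSEM 1.2.19, Seurat and GRCm38 are named in the submitters' processing notes; aligner, annotation, strand and filters: not given in the sources used here. Overlapping genes on opposite strands and near-identical copies are therefore uncertain singly. Of the table's columns 688 were used and 929 were not; no 2 used columns were identical.

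Means per group, log2((mean adult + 1)/(mean P14 + 1)), the difference of mean log2(TPM + 1), run means and shares of cells at 1 TPM or more were computed with pandas 2.3.3, numpy 2.4.6, matplotlib 3.10.9 and scipy 1.17.1 under Python 3.11.15. A gene was measured at a mean of 5 TPM in either group. The fold and the counts past it are descriptions, not tests; the calculation was tested on simulated data. Of the gene names 39374 (91.0%) matched 1 GENCODE M21 gene, the source of coordinates. No doublets were called. Up to 4 members per list, at 20 TPM or more, were named by largest ratio, or the highest 2 of other cell types; other list members named were chosen after their values were seen, and not every gene the rule takes is printed. The comparison and the lists were chosen with earlier results of these data known. Alternatives tried were the measure, pseudocount, filter, scaling, cell filter, capping, equal weight of runs and each run left out.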

Additional observations from a re-analysis of the deposited data

Results flagged for a closer look

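Of the genes named above, 7 had a ratio of 1.5-fold or more in 1 direction in thalamus and in the opposite direction in both hippocampus and VisCortex. Only named genes were searched, many of them chosen by their thalamus ratio. The share of all measured genes with such a pattern was not counted, so 7 cannot be called many or few. With 1 sample for each age and region, these differences between regions were not tested. Inpp4a, a phosphoinositide phosphatase, had a log2 ratio of 1.96 in thalamus, -1.08 in hippocampus and -1.09 in VisCortex; its adult and P14 means were 105 and 26.1, 32.2 and 69.2, and 26.6 and 57.8 TPM. Paip1, which binds the poly(A) binding protein, had 1.79, -0.63 and -0.70. Psmd12, a proteasome subunit, had -2.26, 0.97 and 0.99, with means of 13.4 and 67.7, 73.1 and 36.7, and 105 and 52.1 TPM. Rpl5 had 0.61, -0.67 and -1.17, and Ldha 1.33, -0.77 and -1.47, with means of 309 and 122, 131 and 224, and 69.1 and 194 TPM. Eif3f had -4.56, 1.25 and 0.70, and Psat1 -4.26, 0.70 and 3.19. In thalamus Eif3f was in 9.89% and Psat1 in 3.30% of adult cells, so these 2 values rest on few cells.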

How the results depend on the processing

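Of 137 named genes with a ratio of 1.5-fold or more, 132 kept their direction under each of 17 alternatives and 5 did not. Pf4 was not among these 137, and its log2 ratio of -2.19 turned to 0.37 by the difference of mean log2 values. Not every alternative could turn a direction. The other pseudocount and the other limits for a measured gene could turn none. Leaving out a run or weighting runs equally could turn no gene that was separated by run. For the 40 genes taken by rule, the choice itself fixed the direction without each run and by mean log2 values. With the difference of mean log2(TPM + 1), 488 genes were higher and 1212 lower, 325 and 889 of them separated by run, and the medians were -1.91 for ribosomal protein, -0.33 for homeostatic and -0.067 for disease-associated genes. With a mean of 20 TPM or more, 2291 genes were higher and 2003 lower, and 948 of the lower were separated. Leaving out each title run in turn gave 3218 to 3865 higher and 3747 to 4981 lower genes. With fewer runs to separate, 1818 to 3402 higher and 2072 to 3297 lower genes were separated. The medians then ranged from -0.29 to 0.041 for all genes, -0.98 to -0.75 for ribosomal protein, -1.39 to -0.46 for cell cycle, -0.25 to -0.0036 for disease-associated and -0.18 to -0.09 for homeostatic genes. The lowest all-gene median, -0.29, came without the second adult run.

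Directions turned as follows, and the cause was not tested. By mean log2 values Rpl5 was at -0.52, Isg15 at -0.081, Bhlhe41 at 0.14 and Top2a at 0.24. Isg15 was at -0.23 with values capped at the 98th percentile and at -1.18 without the first adult run. Bhlhe41 was at 0.038 without the first P14 run, Top2a at 0.016 without the second P14 run and Slc1a3 at -0.024 without the second adult run. The median of mitochondrially encoded genes was 0.050 with all cells and 0.092 without the second adult run. Over the left-out runs, log2 ratios ranged from -1.18 to 3.58 for Isg15, -1.50 to 0.038 for Bhlhe41, -2.08 to 0.016 for Top2a and -0.024 to 1.12 for Slc1a3, and the mitochondrial median from -1.48 to 0.092. The ribosomal protein median was not computed after rescaling without those genes. No paired analysis was possible because the cells carry no replicate numbers shared between the ages and no test was made. The number of reads per cell is unknown, so a gene at 0 in a cell may have been missed.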
